A study of Mus musculus with 24 samples.

Results

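The comparison set the whole leukocyte infiltrate of the pancreas against 1 of its own cell populations, the islet-reactive CD4 T cells, in mice with a benign insulitis (leukocytes around the islets that spare most beta cells for a long time). It uses 6 of the 24 oligonucleotide arrays of the series, assigned to their groups by their labels. The comparison and the gene lists used below were chosen with earlier results of these data known. The NOD infiltrate group holds 3 arrays of RNA from viable (Hoechst-negative) CD45-positive pancreatic cells of untreated 25-day-old mice. The NOD pancreatic T cell group holds 3 arrays of RNA from viable pancreatic cells positive for CD45 and CD4 and high for the BDC2.5 clonotype, from untreated mice of 24, 24 and 25 days for arrays 1, 2 and 3. Mice of both groups were on the NOD background and carried the BDC2.5 transgene, a rearranged T cell receptor from an islet-reactive CD4 T cell clone, so their T cell repertoire is far narrower than that of ordinary NOD mice. RNA of both groups was isolated with Trizol and amplified in 2 rounds. The T cells were gated from the same kind of CD45-positive population that makes up the infiltrate, so the infiltrate arrays contain T cell RNA as well. The labels do not say whether the arrays of a group come from separate mice or pools of mice. How far a p-value reflects variation from mouse to mouse is therefore unknown. The spread behind each p-value was pooled within 10 groups over all 24 arrays of the series, spleen and NK cell arrays included. It is therefore not the spread of the 6 compared arrays alone. Also used were 3 arrays of clonotype-high CD4 T cells from the pancreatic lymph node of the same NOD line (24, 22 and 25 days), and, from B6g7 mice (C57Bl/6 with the H2g7 haplotype, also carrying BDC2.5, with an insulitis labelled aggressive), 3 infiltrate arrays (25, 28 and 24 days) and 2 pancreatic T cell arrays (25 and 22 days).

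An islet infiltrate brings together T cells, B cells, macrophages, dendritic cells and smaller numbers of NK cells and granulocytes. Antigen-presenting cells load peptides onto major histocompatibility complex (MHC) class II molecules and show them to CD4 T cells through their T cell receptor. In NOD mice both B cells and macrophages take part in presenting islet antigen, and mouse T cells do not make class II molecules of their own. A gene of a cell type missing from the sorted T cells is therefore read on the infiltrate arrays over the background of its probe set on the T cell arrays.

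Levels are given on the log2 scale of the deposited intensity, and a difference is the infiltrate mean minus the T cell mean on that scale. Each difference was tested with limma across all 12422 probe sets, and a gene passes where its adjusted p is under 0.05. Of 12422 probe sets 401 passed (3.23%), 357 higher in the infiltrate (2.87%) and 44 lower (0.354%). Counted by gene, with 1 probe set for each of 8251 genes, 293 passed (3.55%). Of these 266 were higher in the infiltrate (3.22% of genes) and 27 lower (0.327%), and the median difference over all genes was 0.00. With only the groups compared in the fit, and not all 10 groups, 86 probe sets passed, 84 higher and 2 lower. The split depended on the setting. It was 432 higher and 170 lower without T cell array 2, 594 and 253 without T cell array 3, 226 and 90 with T cell array 3 as the only reference, and 47 and 0 with a replicate block. With runs of serial codes as a block more probe sets were lower (1906) than higher (1485).

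The groups differed in how alike their arrays were. The 3 infiltrate arrays correlated at 0.958 to 0.979 over all probe sets (Pearson, log2), and the 3 T cell arrays at 0.817 to 0.882. T cell array 1 carried liver transcripts: the summed intensity of 12 liver genes was 35859 there and between 258 and 413 on the other 5 arrays. T cell array 2 had the largest difference between the 3′ and 5′ probe sets of Gapdh, a sign of how far amplified RNA is shortened, at 4.87 log2 units, against 2.78 to 3.91 on the other 5 arrays. Infiltrate array 1 carried haemoglobin: the summed intensity of 7 erythroid genes was 14120 there, 976 and 326 on the other infiltrates and 283 to 905 on the T cell arrays. The submitters' processing notes name RMA, a joint background correction, normalization and summary of probe sets, for the T cell arrays and not for the infiltrates, so a difference in processing cannot be told apart from the groups. With T cell array 3 alone as the reference 316 probe sets passed, 226 of them higher, and without infiltrate array 1 the count was 220. In these bulk samples fewer cells of a type and less RNA per cell cannot be told apart.

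MHC class II genes held the largest difference of the comparison. The class II list holds 13 measured genes of class II molecules, their loading machinery and the regulators Ciita and Rfxank. Of these 7 were higher in the infiltrate and none lower, against 3.22% of all genes higher, and the median of the list was 2.0. H2-Aa, which encodes the alpha chain of I-A, read 11.57, 11.94 and 11.22 on the infiltrate arrays and 6.22, 5.04 and 5.31 on the T cell arrays. Every infiltrate array lay far above every T cell array, and the difference was 6.05 (SE 0.32, adjusted p = 2.84e-09), at least 66.4-fold. Such folds are given as "at least" where the lower group mean was at or under 6.13, the level under which 90% of the readings of 45 genes known from tissues other than blood cells fell on the 6 arrays.

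The promoters of 3 class II genes that passed are shown because these genes moved together and class II promoters are known to share a module of short boxes (S, X, X2 and Y) read by RFX, CREB-type and NF-Y factors under the coactivator CIITA. Each line gives the 150 bases before the transcription start, 5′ to 3′ on the gene's strand, from RefSeq on GRCm38.p6, with the Y box core (ATTGG, or CCAAT on the other strand) in capitals. They lie at chr17:34287824-34287973 for H2-Aa (minus strand), chr17:34305717-34305866 for H2-Eb1 (plus strand) and chr17:34153041-34153190 for H2-DMb1 (plus strand).
H2-Aa: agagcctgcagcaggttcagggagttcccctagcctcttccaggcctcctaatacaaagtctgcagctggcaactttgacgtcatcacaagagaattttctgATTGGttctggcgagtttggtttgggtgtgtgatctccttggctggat
H2-Eb1: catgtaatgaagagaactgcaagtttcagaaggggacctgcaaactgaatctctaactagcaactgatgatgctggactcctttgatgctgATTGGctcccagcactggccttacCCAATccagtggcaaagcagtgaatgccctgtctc
H2-DMb1: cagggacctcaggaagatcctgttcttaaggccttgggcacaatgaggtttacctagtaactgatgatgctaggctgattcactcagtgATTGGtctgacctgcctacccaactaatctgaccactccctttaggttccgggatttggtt
The core starts 48 bases before the start of H2-Aa, 59 and 35 before that of H2-Eb1 and 61 before that of H2-DMb1. Within 250 bases before the start, the core in either orientation stood in 9 of the 10 promoters found for the class II list. It stood in 33.8% of all 32851 promoters and in 31.9% of the 260 promoters of genes that passed as higher. The 10 promoters belong to 9 of the 13 genes, the regulator Rfxank included. The core also stood in the promoters of H2-Oa, H2-DMb2, H2-Eb2 and Rfxank, which did not pass. The promoter without it is 1 of the 2 of H2-DMa, which passed. Promoters of H2-Ab1, H2-Ea, Cd74 and Ciita were not among the 10. The core of the X2 box (TGACG, or CGTCA on the other strand) stood in 1 of the 10, in 17.8% of all promoters and in 24.3% of those of tested genes. Only exact matches were counted, so these shares do not show whether an X2 box that departs from this core is present. A match of 5 letters is a description and not a binding site.

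The other classical class II chains were also higher in the infiltrate. H2-Eb1, the beta chain of I-E, read 11.003, 11.54 and 10.38 in the infiltrate and 6.48, 6.61 and 6.26 in T cells, a difference of 4.53 (SE 0.35, adjusted p = 2.13e-07), or 23.05-fold. H2-Ab1, the beta chain of I-A, read 9.71, 10.22 and 8.83 against 5.5, 5.55 and 5.28, a difference of 4.14 (SE 0.32, adjusted p = 2.02e-07), at least 17.7-fold. In all 3 genes infiltrate array 2 was the highest and array 3 the lowest. H2-Ea, the alpha chain of I-E, which mice of the H2g7 haplotype are known not to express, read 3.52 to 3.73 in the infiltrate and 3.51 to 4.06 in T cells, and the groups overlapped.

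The genes that prepare class II molecules for peptide followed at smaller sizes. Cd74, the invariant chain that guides class II molecules through the cell, read 10.11, 10.25 and 8.54 against 6.77, 5.98 and 6.26 (difference 3.30, SE 0.50, adjusted p = 6.02e-04). H2-DMb1 and H2-DMa, the subunits of the peptide-exchange factor H2-M, differed by 2.62 (adjusted p = 1.74e-06) and 2.34 (adjusted p = 1.02e-04). H2-Ob, a subunit of H2-O, which restrains H2-M and is typical of B cells, differed by 2.0 (adjusted p = 4.58e-04). Its partner H2-Oa did not pass (0.81, adjusted p = 0.217), and its T cell array 2, at 7.69, lay inside the infiltrate range of 7.36 to 7.89. Ciita, the coactivator of all these genes, did not pass either (0.46, adjusted p = 0.194), with 5.79 to 6.33 in the infiltrate and 5.20 to 5.83 in T cells. The number that passed was also 7 without infiltrate array 1, without T cell array 1 and with T cell array 3 as the only reference, and 6 when only the groups compared were fitted.

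**Figure D1:**
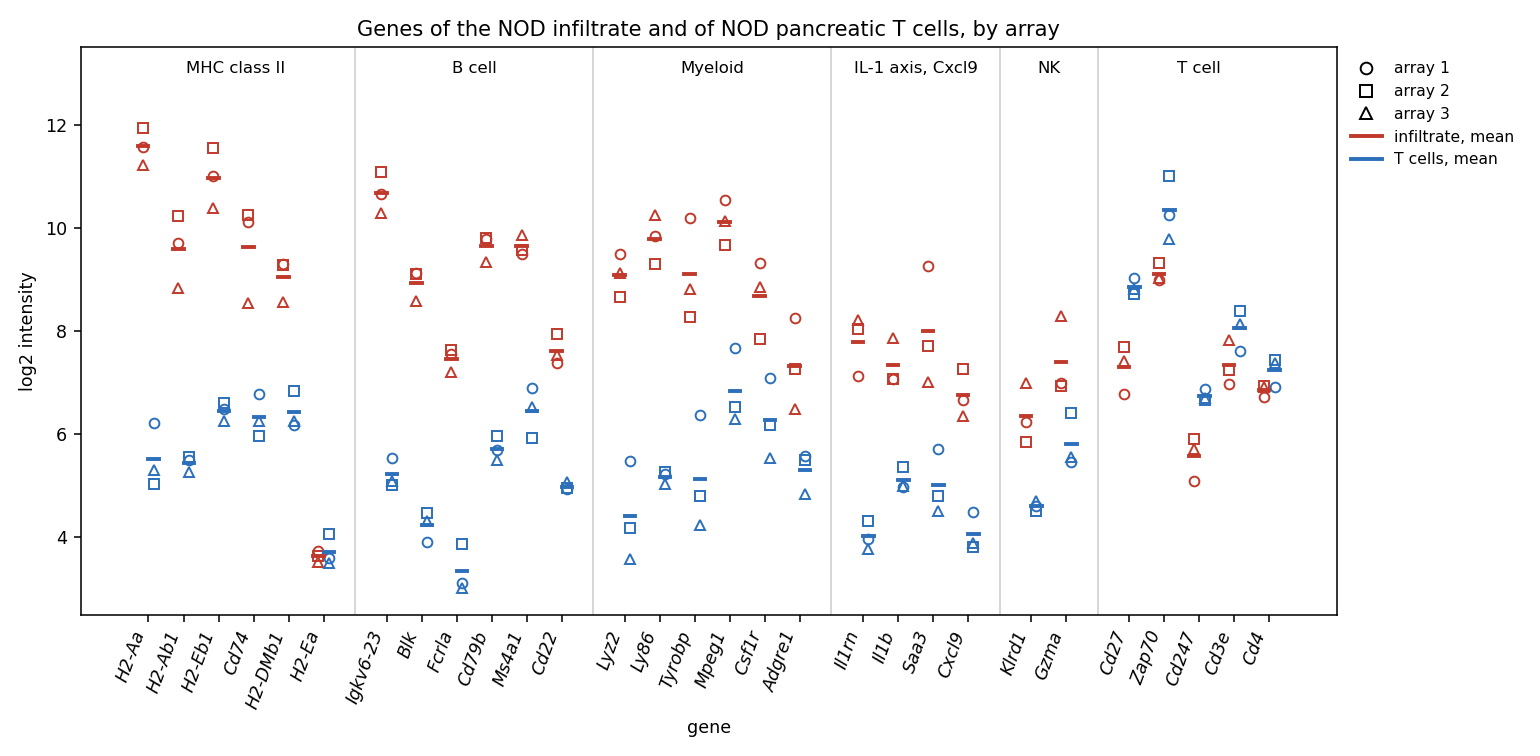
Log2 intensity (vertical axis) of named genes on the 3 NOD infiltrate arrays (red) and the 3 NOD pancreatic T cell arrays (blue), with a marker shape for each array and a bar at each group mean. Infiltrate and T cell points stand apart for the class II, B cell and myeloid genes shown except H2-Ea, while the points of Cd3e and Cd4 overlap.

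B cell genes formed the next block. Of 21 measured B lineage genes 14 were higher in the infiltrate (66.7%, against 3.22% of all genes) and none lower. The median of the list was 1.59. Blk, a Src-family kinase of B cells, read 9.13, 9.11 and 8.58 in the infiltrate and 3.92, 4.47 and 4.33 in T cells (difference 4.70, SE 0.25, adjusted p = 2.84e-09, at least 26.0-fold). Cd79b, the signalling chain of the B cell receptor, read 9.79, 9.81 and 9.35 against 5.70, 5.97 and 5.5 (difference 3.92, SE 0.28, adjusted p = 8.17e-08, at least 15.2-fold). Ms4a1, which encodes the B cell surface protein CD20, read 9.50, 9.58 and 9.86 against 6.90, 5.92 and 6.53 (difference 3.19, SE 0.28, adjusted p = 1.20e-06, 9.15-fold). In these 3 genes the lowest infiltrate array stood more than 2 log2 units above the highest T cell array.

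Genes of B cell receptor signalling and of mature B cells also rose. Fcrla, an Fc receptor-like protein kept inside B cells, differed by 4.13 (adjusted p = 2.92e-08), and Cd22, an inhibitory co-receptor, by 2.63 (adjusted p = 2.85e-08). The adaptor Blnk differed by 2.02, the kinase Btk by 1.71 and the transcription factors Spib and Pax5 by 1.59 and 0.92, all with adjusted p between 7.67e-05 and 0.0051, but another probe set of Spib and of Pax5 had the opposite sign. Fcer2a (CD23), a low-affinity IgE receptor found on follicular B cells, read 8.21, 9.18 and 8.81 against 6.57, 6.64 and 6.80 (difference 2.07, adjusted p = 1.59e-05). Cd24a, Ly6d, Cd37 and Cr2 also passed, at 2.68, 2.26, 1.49 and 0.39. Cd37 passed with overlapping arrays, at 8.69 to 10.12 against 7.70 to 8.82, and the other probe set of Ly6d had the opposite sign. Cd79a, the partner chain of Cd79b, read 6.94, 7.09 and 6.87 against 6.18, 6.70 and 6.12 and did not pass (0.63, adjusted p = 0.222). Pou2af1, Vpreb3, Ebf1, Cxcr5, Pou2f2 and Cd72 did not pass, at -0.06 to 1.09. Between 11 and 14 of the list passed without any 1 of the 6 arrays, 11 with T cell array 3 as the only reference, and 7 when only the groups compared were fitted.

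Immunoglobulin transcripts pointed the same way for some probe sets only. Igkv6-23, a kappa light chain variable gene, read 10.66, 11.08 and 10.29 in the infiltrate and 5.55, 5.02 and 5.10 in T cells, and its difference of 5.45 (SE 0.23, adjusted p = 1.07e-10, at least 43.7-fold) had the smallest p of all named genes. Ighm, the constant region of IgM, read 11.22, 11.08 and 10.12 against 8.80, 7.48 and 8.03 (difference 2.70, SE 0.35, adjusted p = 1.24e-04, 6.51-fold). Another 15 probe sets carry the symbol Ighm, and 6 of them had the opposite sign. Variable genes are near-identical copies of each other, so which of them were read is uncertain. Of 13 measured genes of the immunoglobulin and plasma cell list 3 were higher (23.1%, against 3.22% of all genes) and none lower. Beside Ighm these were Jchain, the joining chain of secreted IgM and IgA (2.26, adjusted p = 0.0283), and a further kappa variable gene (1.17, adjusted p = 0.0123). None of the list passed when only the groups compared were fitted, and 1 without infiltrate array 2 or T cell array 1. Igha varied among the infiltrates, at 6.83, 8.75 and 5.12 against 4.59 to 4.89 in T cells, and did not pass (2.16, adjusted p = 0.249). The plasma cell regulators Prdm1 and Xbp1 and the surface protein Sdc1 did not pass, at 0.53, 0.80 and -0.30.

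Macrophage and monocyte genes were the largest group by number of calls, though not by share. Of 36 measured members 16 were higher (44.4%, against 66.7% for B lineage and 3.22% of all genes) and none lower. The median of 0.79 was smaller than for B cells, and 19 of the 36 had means at or under 6.13 in both groups. Lyz2, the lysozyme of myeloid cells, read 9.49, 8.66 and 9.13 in the infiltrate and 5.48, 4.18 and 3.58 in T cells (difference 4.68, SE 0.88, adjusted p = 0.00439, at least 25.6-fold). Mpeg1, a pore-forming protein of macrophages, read 10.54, 9.67 and 10.14 against 7.67, 6.53 and 6.29 (difference 3.29, SE 0.30, adjusted p = 1.74e-06). Both were highest on infiltrate array 1 and, among the T cells, on array 1.

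Receptors that define macrophages passed as well. Csf1r, the receptor for the macrophage growth factor CSF-1, read 9.32, 7.85 and 8.86 against 7.10, 6.18 and 5.54 (difference 2.41, adjusted p = 0.0013, 5.31-fold). Adgre1, which encodes F4/80, read 8.24, 7.26 and 6.49 against 5.58, 5.49 and 4.85 (difference 2.02, SE 0.32, adjusted p = 9.22e-04, at least 4.07-fold). Cd14, part of the lipopolysaccharide receptor, differed by 2.53 (adjusted p = 4.66e-04), and the lectin Clec4d, the lysosomal protein Cd68 and the scavenger receptor Msr1 by 2.73, 2.04 and 1.98. Another probe set of Mpeg1, of Csf1r and of Cd68 had the opposite sign. The myeloid transcription factor Spi1 (PU.1) differed by 1.0 (adjusted p = 0.00305), and Cebpd and Cebpb by 1.71 and 1.60. The remaining members that passed were Pirb, Cyba, Csf2rb2, Plaur and Csf2ra, at 1.11 to 1.68. Itgam (CD11b), Cx3cr1 and Mrc1 did not pass, with differences of -0.13, 0.04 and -0.26, and the groups overlapped in each. The motif GAGGAA, a PU.1-type core, or its complement TTCCTC stood within 250 bases before the start in 28.1% of the promoters of genes that passed as higher, in 22.9% of those of all tested genes and in 23.3% of all promoters. The first share counts 260 promoters of 197 genes, so some genes count more than once. Whether the shares differ was not tested, and a match of letters is not a binding site.

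The macrophage and the erythroid sums were both highest on infiltrate array 1. The summed intensity of the 36 macrophage genes was 10040 on infiltrate array 1, 5368 on array 2 and 5870 on array 3, against 1998 to 2264 on the T cell arrays. Without array 1 or with T cell array 3 as the only reference 12 of the 36 passed, and 4 when only the groups compared were fitted. The part of the erythroid transcripts in the result was not tested.

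**Figure D2:**
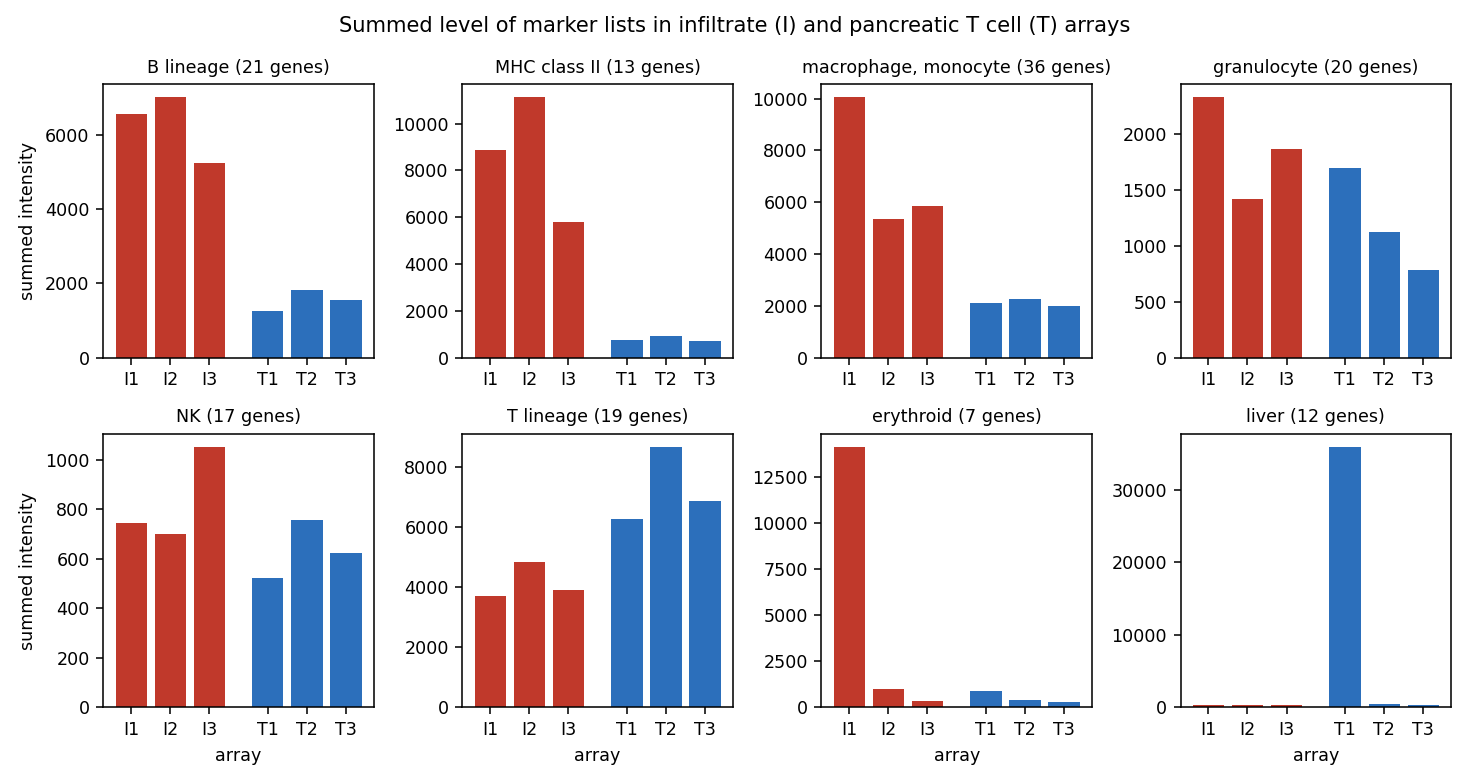
Summed intensity (vertical axis, linear, each panel on its own scale from 0) of 8 marker lists on the infiltrate arrays I1 to I3 (red) and the pancreatic T cell arrays T1 to T3 (blue). The B lineage, class II and macrophage sums are higher on every infiltrate array than on any T cell array, the erythroid sum is highest on I1 at 14120, and the liver sum is highest on T1 at 35859.

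Fc receptors and their adaptors partly divided between the B cell and myeloid sets. Tyrobp (DAP12), an adaptor of myeloid and NK receptors, read 10.19, 8.28 and 8.82 in the infiltrate and 6.37, 4.81 and 4.23 in T cells (difference 3.96, SE 0.50, adjusted p = 7.77e-05, at least 15.6-fold). Of the 9 measured members 5 were higher (55.6%, against 3.22% of all genes): Tyrobp, Fcer2a, Syk, Fcgr1 and Fcer1g. Syk, the kinase that acts behind these receptors, differed by 1.68, the high-affinity IgG receptor Fcgr1 by 1.44 and the common Fc gamma chain Fcer1g by 1.25. With T cell array 3 as the only reference 3 members passed, and 1 when only the groups compared were fitted. Fcgr2b, the inhibitory receptor, did not pass (0.89, adjusted p = 0.138), and Fcgr3 read 5.22 to 5.6 against 5.44 to 5.68 (-0.09, adjusted p = 0.877).

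Some genes of innate sensing, lysosomes, complement and the annexin family were higher too. Ly86 (MD-1), the partner of the Toll-like receptor relative RP105 on B cells and macrophages, read 9.84, 9.30 and 10.24 in the infiltrate and 5.23, 5.28 and 5.03 in T cells (difference 4.61, SE 0.28, adjusted p = 1.09e-08, at least 24.5-fold). Casp1, the inflammasome protease, passed at 1.51 (adjusted p = 2.63e-04) and Cd14 as given above, which makes 3 of 10 measured innate sensing genes. Of 26 lysosomal genes 5 were higher (19.2%), led by Ifi30 (GILT), the thiol reductase that unfolds antigens for class II loading, at 2.69 (adjusted p = 2.30e-04). The others were the hydrolases Hexa (2.39), Man2b1 (1.53) and Asah1 (1.46) and the sphingolipid activator precursor Psap (2.15), and other probe sets of Man2b1 and Psap had the opposite sign. Ctss (cathepsin S), which trims the invariant chain, read 10.74, 10.51 and 11.44 against 9.71, 7.92 and 10.51 and did not pass (1.51, adjusted p = 0.12). Several cathepsins were highest on T cell array 1, the array with liver transcripts, such as Ctsl at 9.60 there against 4.71 to 6.83 elsewhere. Of the 26 lysosomal genes 10 passed without that array, 3 without infiltrate array 1 and 1 when only the groups compared were fitted.

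Of 12 complement genes 2 were higher (16.7%, against 3.22% of all genes), the positive regulator properdin (Cfp) at 1.66 and the receptor C3ar1 at 0.83. The C1q chains, made by tissue macrophages, were graded over the infiltrates. C1qb read 7.73, 7.18 and 5.20 against 5.54, 4.21 and 3.95 and did not pass (2.14, adjusted p = 0.0601), and C1qa read 9.13, 7.89 and 6.11 against 5.75 to 6.42 (1.61, adjusted p = 0.133). The number of complement genes that passed was 5 without infiltrate array 3, 1 without infiltrate array 1 and 0 when only the groups compared were fitted.

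Of 13 annexin and S100 genes 6 were higher (46.2%, against 3.22% of all genes). Anxa1, an anti-inflammatory phospholipid-binding protein abundant in myeloid cells, read 9.07, 7.86 and 8.09 against 5.28, 4.11 and 3.60 (difference 4.01, SE 0.43, adjusted p = 1.58e-05, at least 16.1-fold). Ahnak, S100a6, Anxa2, Anxa4 and S100a4 differed by 2.63, 2.09, 2.0, 1.35 and 1.24. The number that passed was 4 without infiltrate array 1 or with T cell array 3 as the only reference, and 1 when only the groups compared were fitted. Lgals1, a galectin, did not pass and varied most among the T cells, at 9.68, 10.61 and 7.36.

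Of 19 measured dendritic cell genes 5 were higher (26.3%, against 3.22% of all genes) and none lower, and the median was 0.28. Cd40, the receptor through which CD4 T cells license antigen-presenting cells, read 7.23, 7.34 and 6.87 against 4.99, 4.89 and 4.85 (difference 2.24, SE 0.20, adjusted p = 1.32e-06, at least 4.71-fold). Cst3, Tcf4, Clec4a2 and Cd83 differed by 2.09, 1.95, 1.58 and 1.48. The number that passed was 3 without infiltrate array 1 or T cell array 2, 2 with T cell array 3 as the only reference and 1 when only the groups compared were fitted. B cells and macrophages express several of these genes too. Of genes more specific to dendritic cells, Itgax (CD11c) read 6.52, 6.03 and 7.11 against 4.88, 5.47 and 5.81 and did not pass (1.17, adjusted p = 0.0591). Flt3, Zbtb46 and Xcr1, and Ccr7, which is not specific to dendritic cells, did not pass either, with differences of -0.29 to 0.12 and overlapping arrays.

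Of 20 innate cytokines and mediators 3 were higher and none lower, and the median was 0.06. Il1rn, the IL-1 receptor antagonist, read 7.13, 8.03 and 8.21 in the infiltrate and 3.97, 4.32 and 3.77 in T cells (difference 3.77, SE 0.34, adjusted p = 1.74e-06, at least 13.6-fold). Il1b, the cytokine it blocks, read 7.06, 7.08 and 7.87 against 4.99, 5.36 and 5.0 (difference 2.22, SE 0.33, adjusted p = 5.02e-04, at least 4.67-fold). Both were highest on infiltrate array 3. Saa3, an acute-phase protein that macrophages make in inflammation, read 9.27, 7.72 and 7.0 against 5.71, 4.80 and 4.52 (difference 2.98, SE 0.55, adjusted p = 0.00394) and was highest on infiltrate array 1. In the alternatives 3 were higher without each of the 6 arrays in turn. Without T cell array 3, 1 member of the list was also lower. Il6, Il12a, Il12b, Il15, Il18 and Nos2 did not pass, with differences of -0.07 to 0.33.

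Of 25 chemokines 3 were higher and 1 lower. Cxcl9, an interferon-gamma-induced ligand of CXCR3, read 6.66, 7.27 and 6.34 against 4.49, 3.81 and 3.89 (difference 2.69, SE 0.25, adjusted p = 1.74e-06, at least 6.48-fold). It was the only member of 17 genes of the interferon-gamma list that passed (5.88%, against 3.22% of all genes higher). Ccl9 passed with overlapping arrays, at 9.03, 7.46 and 6.99 against 7.03, 4.43 and 4.58 (2.48, adjusted p = 0.0159), and the neutrophil attractant Cxcl2 differed by 1.14 (adjusted p = 0.00216). Ccl25 was lower by a small amount near background (-0.51, adjusted p = 0.0244). Ccl5, which T and NK cells also make, read 9.44, 8.53 and 9.75 against 8.03, 9.16 and 6.53 and did not pass (1.33, adjusted p = 0.365). Of 15 chemokine receptors 2 passed as higher (13.3%): Ccr6, found on B cells, at 2.32 (adjusted p = 7.69e-05), and Ccr1, found on myeloid cells, at 1.39 (adjusted p = 8.53e-04).

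None of 20 measured granulocyte genes passed, and the median of the list was 0.29. In 11 of them both group means were at or under 6.13, and 9 had all infiltrate arrays above all T cell arrays, against 7.93% of all genes. S100a8, a calcium-binding protein abundant in neutrophils, read 8.64, 7.35 and 8.89 in the infiltrate and 4.22, 4.11 and 4.47 in T cells, without overlap. Its difference of 4.03 had an SE of 1.19 (adjusted p = 0.0873), since the fit shares 1 spread over 10 groups and the pair of NOD NK cell arrays read 5.03 and 12.58. Fitted over the 2 groups alone, 5 of the 20 passed, and 1 with a replicate block added. The 5 were S100a8 (adjusted p = 0.0097), Ngp, S100a9, Chil3 and Mmp9, the last 4 with differences of 1.59, 3.12, 2.37 and 1.92 and adjusted p between 0.0166 and 0.0422. The granule genes Elane, Ctsg and Mpo lay between -0.24 and 0.09, with overlapping arrays.

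Few NK cell and cytotoxic genes passed. Of 17 measured NK genes 2 were higher (11.8%, against 3.22% of all genes), the lectin-like receptor Klrd1 (CD94) and the receptor Cd244a. In 12 of the 17 both group means were at or under 6.13. In 6 all infiltrate arrays lay above all T cell arrays, against 7.93% of all genes. Klrd1 read 6.24, 5.85 and 7.0 against 4.62, 4.51 and 4.71 (difference 1.75, SE 0.30, adjusted p = 0.00212, at least 3.37-fold), and Cd244a differed by 1.18 (adjusted p = 0.0101). Both were highest on infiltrate array 3. No NK gene passed when only the groups compared were fitted. Of 15 cytotoxic effector genes only Gzma, granzyme A, passed (6.67%). It read 6.99, 6.93 and 8.30 against 5.47, 6.42 and 5.56 (difference 1.59, SE 0.40, adjusted p = 0.0349), and it passed in 7 of 18 alternatives. In 9 of the 15 both group means were at or under 6.13, and 3 had all infiltrate arrays above all T cell arrays. Klrb1b and Klrk1 (NKG2D) did not pass, at 0.77 and 0.65. Gzmb, Prf1 and Ifng did not pass, at 0.92, 0.36 and 0.61. Cd8a, the marker of CD8 T cells, read 6.18, 6.59 and 7.13 against 5.44, 5.72 and 5.86, without overlap, and did not pass (0.96, adjusted p = 0.119). The other of the 2 measured genes of the CD8 T cell list had a negative difference, -0.24, and did not pass either. Trgv1, a gamma chain variable gene of gamma-delta T cells, was higher by 1.22 (adjusted p = 0.0185). It was the only 1 of 3 measured genes of the gamma-delta T cell list that passed, and the lowest difference of the list was -0.06.

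**Figure D3:**
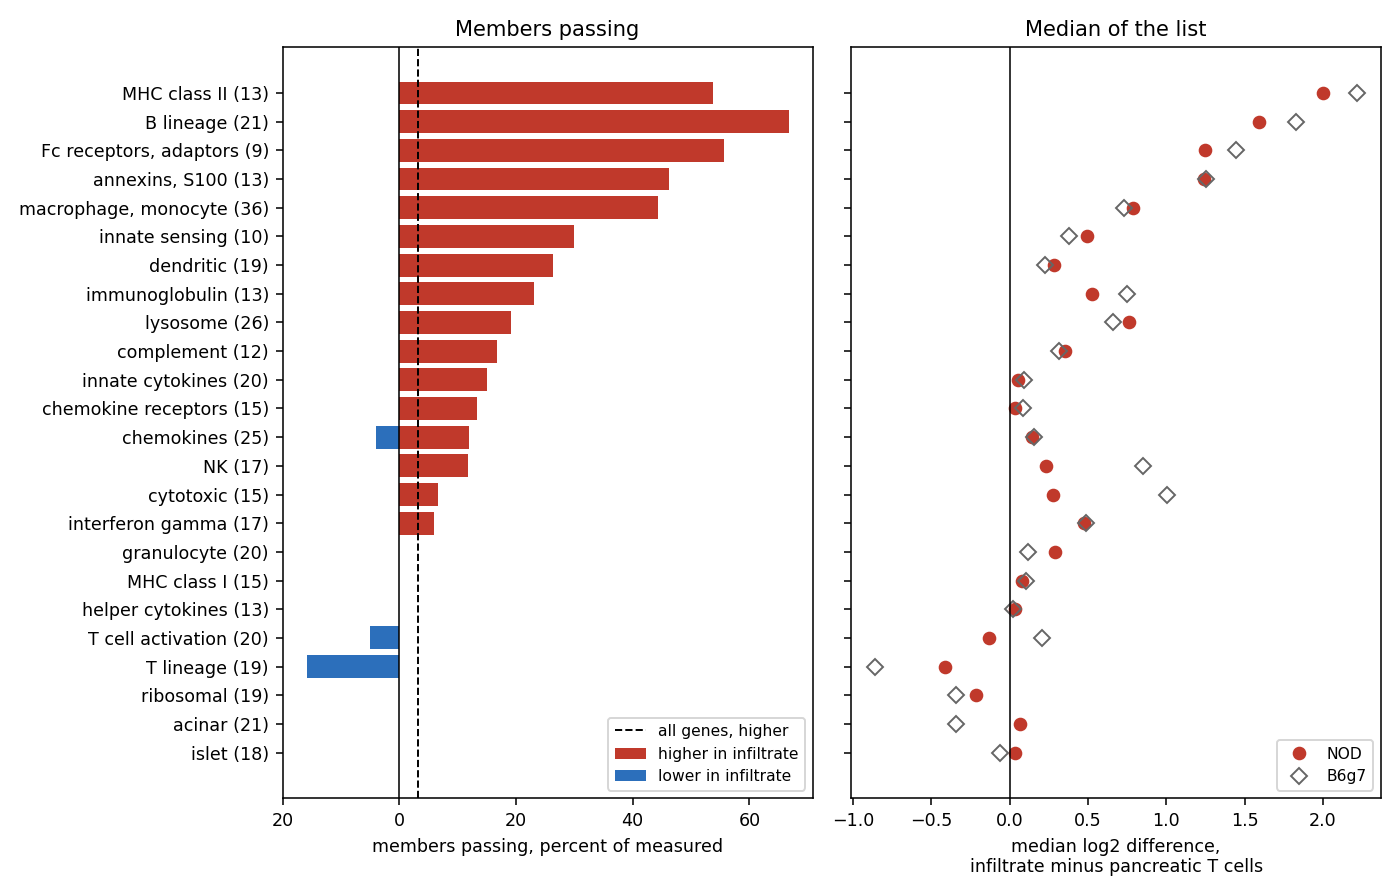
Left, percent of the measured members of each gene list (number measured in brackets) that passed as higher (red, to the right) or lower (blue, to the left) in the NOD infiltrate, with the 3.22% of all genes that were higher as a dashed line. Right, median log2 difference of each list in NOD (red circles) and in B6g7 (open diamonds): the B lineage and class II medians lie at 1.59 and 2.0 in NOD, and the T lineage median at -0.41.

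The next lists are for cells and tissues that a pancreatic sort could carry along. No member passed among 11 endothelial, 19 stromal, 21 acinar, 18 islet, 5 platelet, 7 erythroid and 12 liver genes. With 3.22% of all genes higher and 0.327% lower, lists this short would hold few calls or none. In 4 of the 21 acinar genes all infiltrate arrays lay above all T cell arrays, against 7.93% of all genes. In 2 stromal and 2 islet genes all infiltrate arrays lay below, against 343 of 8251 genes. No endothelial difference was above 0. Both group means were at or under 6.13 in 16 of 18 islet, 15 of 19 stromal and 13 of 21 acinar genes. Ins2, insulin, read 8.09, 7.78 and 7.59 in the infiltrate and 7.78, 9.22 and 7.69 in T cells, and Col1a2, a fibroblast collagen, differed by 0.07. The 12 liver genes were all at negative differences, 3 of them without overlap, with a median of -2.63, and of -0.40 without T cell array 1. Alb, albumin, read 12.71 on that array and 4.01 to 4.90 on the other 5. The summed intensity of the list was 413 on T cell array 2 and 258 to 281 on the infiltrates. No member passed among 32 cell cycle, 15 MHC class I, 13 glycolysis, 19 ribosomal or 9 naive T cell genes. Single members were higher in the mast cell and basophil list (Hdc, histidine decarboxylase, 1.14, 1 of 13), the type I interferon list (Ifi202b, a DNA-binding interferon-induced protein, 1.71, 1 of 18) and the adhesion list (Icam2, 1.73, 1 of 15). Of 18 early response genes the transcription factor Klf6 and the antiproliferative gene Btg2 were higher, at 1.46 and 1.07.

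Of 19 measured T lineage genes 3 were lower in the infiltrate, 16 did not pass and none was higher, against 0.327% of all genes lower, and the median of the list was -0.41. The count was 1 without infiltrate array 1 or with T cell array 3 as the only reference, and 0 when only the groups compared were fitted. Cd27, a co-stimulatory receptor of the TNF receptor family, read 6.77, 7.69 and 7.43 in the infiltrate and 9.04, 8.73 and 8.82 in T cells, and fell by 1.57 (SE 0.29, adjusted p = 0.00367), 2.96-fold. Zap70, the kinase that binds the T cell receptor complex, read 8.99, 9.32 and 9.02 against 10.24, 11.01 and 9.78 and fell by 1.23 (SE 0.30, adjusted p = 0.0298). Cd247, the zeta chain of that complex, read 5.10, 5.90 and 5.72 against 6.88, 6.67 and 6.71 and fell by 1.18 (SE 0.24, adjusted p = 0.0089), although its other probe set had the opposite sign. In each of the 3 genes every infiltrate array lay below every T cell array.

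The receptor complex and co-receptor did not pass. Cd3g read 7.84, 8.37 and 8.56 against 9.30, 9.40 and 9.55, without overlap (-1.16, adjusted p = 0.263). Cd3d, Cd5 and Cd3e differed by -1.09, -0.98 and -0.70, with adjusted p between 0.323 and 0.419. Cd4, a marker of the sort itself, read 6.72, 6.94 and 6.92 against 6.92, 7.44 and 7.39 (-0.39, adjusted p = 0.463). The T cell arrays disagreed on several genes: Cd28, the main co-stimulatory receptor, read 5.13, 6.05 and 9.16 there, and 6.09 to 7.03 in the infiltrate. The summed intensity of the T lineage genes was 3701, 4822 and 3910 on the infiltrate arrays and 6267, 8656 and 6856 on the T cell arrays.

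Of 20 T cell activation genes 1 was lower and none higher, and of 13 inhibitory and regulatory genes 1 was lower and 1 higher, against 0.327% of all genes lower. Tnfrsf4 (OX40), a co-stimulatory receptor of activated T cells, read 7.55, 7.45 and 7.35 against 9.05, 8.82 and 7.60 and fell by 1.04 (adjusted p = 0.0488). Pdcd1 (PD-1), an inhibitory receptor, read 5.71, 5.6 and 5.54 against 6.50, 7.33 and 5.80 and fell by 0.93 (adjusted p = 0.045). In both genes T cell array 3 lay close to the infiltrates, and both calls were lost with that array as the only reference. Il2ra, Icos and Ctla4 did not pass, at -0.12, -0.14 and -0.62, and none of 13 helper T cell cytokine genes passed. Ebi3, a subunit of IL-27 and IL-35 and a member of the inhibitory list, was higher by 0.98 (adjusted p = 0.0111).

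The other large falls were of genes that many cell types use. Nop58 and Nop16, both needed for ribosome assembly in the nucleolus, fell by 1.89 (adjusted p = 0.0388) and 1.28 (adjusted p = 0.00218). Nop16 read 5.77, 5.90 and 5.75 against 7.14, 7.06 and 7.07, the tightest separation among the falls. Skp1, a ubiquitin ligase subunit, fell by 1.42, the ubiquitin ligase Rnf19a by 1.09 and the kinase Gsk3a by 1.01. The metabolic and mitochondrial genes Adi1, Timm17a, Faah, Rars2 and Cyc1 fell by 0.71 to 0.80. Of 26 measured oxidative phosphorylation genes only Cyc1 passed (3.85% lower, against 0.327% of all genes), 25 did not, and the median was -0.29. Of the 15 named falls 1 passed when only the groups compared were fitted, 2 without infiltrate array 1 and 2 with T cell array 3 as the only reference, while of the 15 named rises 14, 15 and 15 passed under those settings.

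The remaining named rises were high on every infiltrate array. Plac8, a cysteine-rich protein of myeloid and B cells, read 10.11, 9.30 and 10.23 against 5.75, 5.18 and 5.36 (difference 4.45, SE 0.25, adjusted p = 4.51e-09, at least 21.8-fold). Napsa, an aspartic protease, read 10.81, 10.38 and 9.65 against 5.62, 6.67 and 5.23 (difference 4.44, SE 0.40, adjusted p = 1.74e-06, at least 21.7-fold). Lyl1, a haematopoietic transcription factor, read 8.35, 7.43 and 7.59 against 3.75, 3.58 and 3.83 (difference 4.07, SE 0.45, adjusted p = 2.17e-05, at least 16.8-fold). All 3 passed in each of 18 alternatives.

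The serial codes in the labels fall into runs, and infiltrate arrays 1 and 2 share a run with T cell array 2. Within that run alone, with 2 arrays against 1 and no test, the differences of the 15 named rises were 3.26 to 6.71, and those of the 15 named falls -1.85 to -0.38. The named genes were chosen on arrays that include these, so the values are a description. What a run shares is not given in the labels.

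Against clonotype-high CD4 T cells of the pancreatic lymph node, which share the infiltrate arrays with the comparison above, 467 genes passed (5.66%), 308 higher (3.73%) and 159 lower (1.93%). Of the 266 genes that were higher against pancreatic T cells, 191 were also called against lymph node T cells, and 10 of the 27 lower genes were (Adi1, Ccl25, Cd247, Cd27, Faah, Nop16, Rars2, Rnf19a, Skp1 and Timm17a). H2-Aa, Blk, Lyz2, Ly86 and Il1rn passed with either reference. Ccl5 differed by 3.81 from lymph node T cells (adjusted p = 0.00143) and by 1.33 from pancreatic T cells, where it did not pass. Gzmb differed by 2.40 and 0.92 in the same order. Tnfrsf4 had the opposite sign against lymph node T cells (0.16, adjusted p = 0.816), and Pdcd1 (-0.19) and Gsk3a (-0.02) were near 0 there.

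The same contrast in B6g7 mice rests on other arrays, and 239 genes passed there (2.90%), 214 higher (2.59%) and 25 lower (0.303%). Of the 266 genes higher in the NOD infiltrate 143 (53.8%) were also called in B6g7, which is 66.8% of the 214. In sign, 263 of the 266 (98.9%) were above 0 in B6g7, where 45.9% of all genes were, and the medians were 1.43 in NOD and 1.20 in B6g7. H2-Aa differed by 6.05 in both, and Blk by 4.70 and 4.42. Of the 27 lower genes 2 (7.41%), Cd27 and Rps28, were called in B6g7, and 24 were below 0, where 54.1% of all genes were. Liver transcripts were also found on B6g7 infiltrates 1 and 2 and B6g7 pancreatic T cell array 1, and on lymph node T cell array 1 of NOD mice.

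The list medians were close in the models for class II (2.0 in NOD and 2.22 in B6g7), B lineage (1.59 and 1.82) and macrophage genes (0.79 and 0.73). For NK genes they were 0.23 and 0.85 and for cytotoxic genes 0.28 and 1.0, of which 2 of 17 and 1 of 15 were called in NOD and 8 of 17 and 6 of 15 in B6g7. The NOD cytotoxic median was 0.72 without the 40% dimmest probe sets and 0.16 without T cell array 1 or infiltrate array 3, and the difference between the models was not tested for lists. Klrg1, Klra3 and Ccr2 differed by 0.50, 0.56 and 0.81 in NOD and by 3.06, 2.82 and 2.68 in B6g7. For genes the difference between the models was tested as an interaction, and these 3 genes did not pass it. Of 12422 probe sets 2 passed (0.0161%), for Trgv1 and Itgae, and 390 (3.14%) had an unadjusted p under 0.05. Irf8, Cd72 and Strap were further genes with small interaction p and larger B6g7 differences, and Ifi202b and Adamdec1 with larger NOD differences (1.71 and 1.69, against 0.31 and 0.31 in B6g7). None of these 5 passed either.

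**Figure D4:**
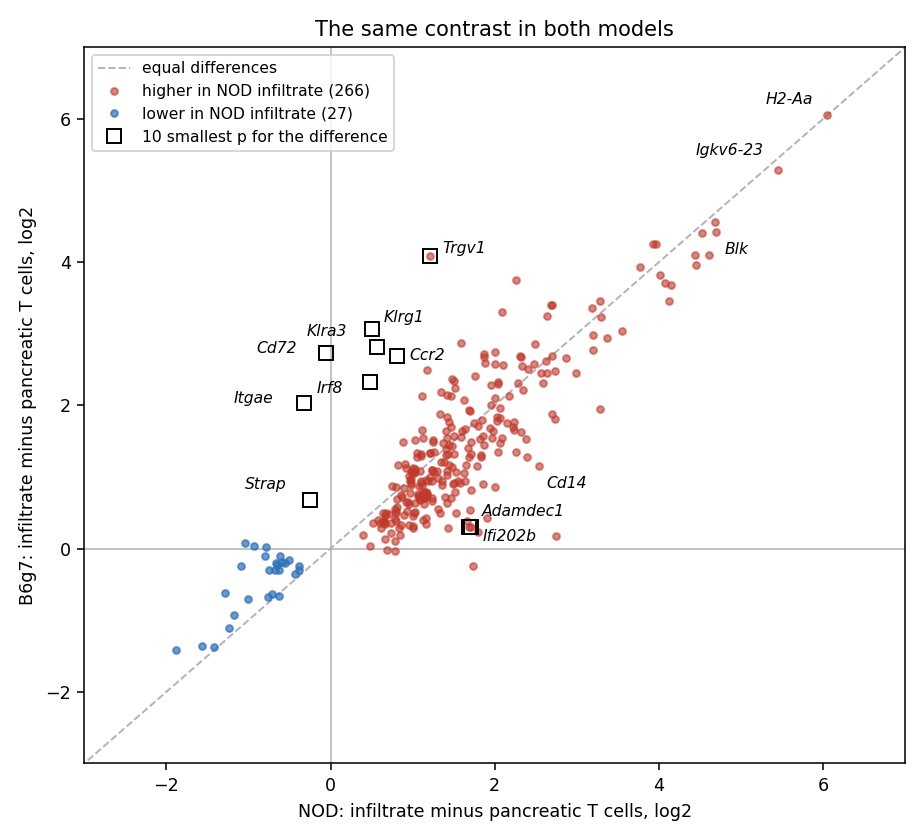
Log2 difference between infiltrate and pancreatic T cells in NOD (horizontal axis) and in B6g7 (vertical axis) for the 266 genes higher (red) and 27 lower (blue) in NOD, with the 10 genes of smallest interaction p as open squares and equal differences as a dashed line. H2-Aa lies near the line at 6.05 in NOD, while Trgv1 lies at 1.22 in NOD and 4.08 in B6g7.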

How the data were processed

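The authors' deposited table gives linear probe set intensity for 24 arrays. The submitters' processing notes name RMA for 11 arrays. For the remaining 13 the processing is not stated in the sources used. The log2 of the deposited intensity was taken without a pseudocount (smallest value 5.70, array medians 35.1 to 39.1). Arrays give no read depth, and their number limits the precision. After leaving out 66 control probe sets, 12422 were tested. Of 12488 deposited probe sets 10833 had 1 gene in the platform annotation (10817 updated by Entrez identifier against RefSeq GRCm38.p6), 396 several and 1193 none. The probe set with the highest mean stood for its gene. Group means of all 24 arrays in 10 groups were fitted with limma 3.58.1 in R 4.3.3 (14 residual degrees of freedom, prior 3.00). Every adjusted p is two-sided, from limma, with Benjamini-Hochberg adjustment over all probe sets. Tables were made with Python 3.11.15, pandas 2.3.3 and numpy 2.4.6. On simulated data 57% of 2-fold and 92% of 4-fold changes were recovered, with 2.61% of calls false. The simulated noise was normal, independent between arrays and of equal spread in all groups. The real T cell arrays were less alike than the infiltrate arrays, so these shares need not hold for this comparison.

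Named genes are the 15 largest rises and 15 largest falls that passed without overlap, a panel of 39 genes (35 measured), the 3 largest of each list and the 10 with the smallest interaction p; others in the lists were added to account for their members. The comparison and the 43 gene lists were chosen with earlier results of these data known. Alternatives were quantile normalization, median centring, a trended robust prior, dropping the dimmest 40% of probe sets, fitting only the groups compared, a replicate block, 1 probe set per gene, serial code runs as a block, log2(intensity + 16), lymph node T cells as the reference and leaving out each array. A liver covariate and T cell array 3 as the only reference were added after seeing the data.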

Additional observations from a re-analysis of the deposited data

Results flagged for a closer look

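Both results below are differences between NOD and B6g7 in the same contrast, tested as an interaction with limma. Trgv1, a variable gene of the gamma-delta T cell receptor, read 7.52, 7.50 and 7.31 in the NOD infiltrate and 5.80, 6.79 and 6.09 in NOD pancreatic T cells. In B6g7 it read 9.98, 9.73 and 9.69 in the infiltrate and 5.5 and 5.94 in T cells. The NOD difference of 1.22 was smaller than the B6g7 difference of 4.08 by 2.87 log2 units (NOD minus B6g7 -2.87, SE 0.42, adjusted p = 0.0271). It passed in 13 of 22 alternatives, with adjusted p from 0.00678 to 1.0.

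Itgae, the alpha chain of an integrin of tissue-resident lymphocytes, read 4.46, 4.22 and 4.38 in the NOD infiltrate and 5.39, 4.49 and 4.16 in NOD T cells. In B6g7 it read 6.02, 5.48 and 6.14 in the infiltrate and 4.07 and 3.63 in T cells. The interaction was -2.36 (SE 0.36, adjusted p = 0.0271), with differences of -0.33 in NOD and 2.03 in B6g7. Every array of both NOD groups lies under 6.13, and another probe set of the gene had the opposite sign. It passed in 10 of 21 alternatives, with adjusted p from 0.00634 to 1.0. RMA is named for the B6g7 infiltrates and the NOD T cells and not for the other groups of this contrast, and its part in the result was not tested.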

How the results depend on the processing

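The 401 probe sets that passed became 86 when only the groups compared were fitted, 641 with lymph node T cells as the reference, 3391 with serial code runs as a block (which rests on 1 T cell array, and moved the median of all probe sets to -0.12) and 220 to 847 without single arrays (220 without infiltrate array 1, 602 without T cell array 2, 847 without T cell array 3). With a replicate block the count was 47. Deviations of same-numbered arrays correlated at 0.13, -0.20 and 0.16, and those of the other pairs at -0.34 to 0.16. Deviations from means of so few arrays cannot decide whether same-numbered arrays are paired. The other settings gave 301 to 440, and a liver covariate 366, of which 298 were among the 401. In each setting the calls of the 401 that were tested kept their sign, except 4 with lymph node T cells.

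Of the 30 named rises and falls 15 passed when only the groups compared were fitted, 15 with the replicate block, 17 with T cell array 3 as the only reference and 17 to 27 without single arrays. For the 15 rises 269 of 270 values over 18 settings kept call and direction, the exception being Tyrobp when only the groups compared were fitted. For the 15 falls 142 of 269 did, 126 lost the call and 1 reversed, Tnfrsf4 at 0.16 with lymph node T cells. The interaction count of 2 became 1 with quantile normalization, without the 40% dimmest probe sets and with T cell array 3 only, 4 with a trended prior, 0 when only the groups compared were fitted (171 with unadjusted p under 0.05) and with a replicate block (128), 160 with serial runs as a block, and 0 to 10 without single arrays (10 without NOD T cell array 3). The cause was not tested.

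Over all lists 73 medians moved beyond the spread between arrays, in 29 lists, and 16 of these changed sign, 7 of them with serial runs as a block and 4 with lymph node T cells. For the lists the text leads with the values were as follows. Without the 40% dimmest probe sets they were 1.87 for B lineage, 1.25 for macrophage, 2.34 for class II and 0.50 for NK genes. With serial runs as a block they were 1.92 for B lineage and -0.12 for NK, and with lymph node T cells 1.08 for macrophage and -0.82 for T lineage. Class II gave 1.58 with log2(intensity + 16) and 1.73 with T cell array 3 only. Without single arrays the ranges were 1.51 to 2.26 for class II, 0.089 to 0.48 for NK and -0.84 to -0.50 for T lineage. Of other lists, the cytotoxic median was 0.72 without the dimmest probe sets, the granulocyte median 0.68 with T cell array 3 only and the MHC class I median 0.73 with serial runs as a block.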

Other observations

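Further genes outside the lists were higher in the infiltrate, and 91 of the 293 genes that passed belong to a list. These were picked after their values were seen, by size of difference and known role. Lipid mediator genes of myeloid cells were among them: Pla2g7, the platelet-activating factor acetylhydrolase, differed by 3.55 (adjusted p = 6.52e-06), Ltc4s, leukotriene C4 synthase, by 1.90 (adjusted p = 0.0225) and Fpr2, a receptor for formyl peptides and lipid ligands, by 2.06 (adjusted p = 0.00548). Ltc4s was graded over the infiltrates, at 8.85, 7.46 and 6.06, against 5.13 to 5.86 in T cells. App, the amyloid precursor protein, read 10.75, 10.14 and 9.79 against 7.01, 6.84 and 6.74 (3.37, adjusted p = 6.53e-09, 10.3-fold). Cd93, Lst1, Ifitm6 and Ptpro differed by 3.29, 3.19, 3.18 and 2.87, all at least 6.41 on every infiltrate array and at most 7.23 on any T cell array.

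Irf5, a transcription factor of myeloid and B cells, differed by 1.96 (adjusted p = 4.54e-07), and Plcg2, the phospholipase behind the B cell and Fc receptors, by 2.23 (adjusted p = 4.07e-05). The kappa variable gene Igkv6-14 differed by 2.33, although its other probe set had the opposite sign. Slc11a1 (NRAMP1), a metal transporter of macrophage phagosomes, differed by 2.06 and Lpl, lipoprotein lipase, by 1.85. With Msr1 they are the 3 of 16 lipid and iron handling genes that passed (18.8%, against 3.22% of all genes higher). Chil1, a chitinase-like protein, differed by 2.75 in NOD (adjusted p = 0.044) and by 0.17 in B6g7, and Icam2, an adhesion molecule, by 1.73 and -0.25. For neither gene did the difference between the models reach the 10 smallest interaction p.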
